A study of Danio rerio with 12 samples.

Results

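The double mutants were compared with the il2rga mutants, which asks what loss of prkdc adds on an il2rga mutant background. These 2 groups hold 6 of the 12 zebrafish libraries of the series, 3 in each, and were taken by the genotype and replicate number in their labels. Each library was made from poly(A) RNA of the kidney of 1 animal, so replicates are separate animals. In adult zebrafish the kidney holds the blood-forming marrow between its tubules, and the RNA of both is mixed in a library. The il2rga mutants carry the allele il2rga Y91fs, and the double mutants carry il2rga Y91fs together with prkdc D3612fs, with allele names from the design text of the series. The il2rga lesion is thus shared by all 6 animals. Wild type animals and animals with prkdc D3612fs alone, 3 of each, served for the same prkdc difference without the il2rga lesion. The labels used here give no age, sex or strain for these animals. In whole tissue, fewer cells of a type and less RNA per cell cannot be told apart.

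The gene prkdc encodes DNA-PKcs, a kinase that holds and processes broken DNA ends so that they can be joined. Developing B and T cells need that joining to assemble their antigen receptor genes, and cells that fail to assemble one do not go on to maturity. The gene il2rga encodes a common gamma chain, the subunit shared by receptors for interleukins that T cells and NK cells depend on in mammals. A table of zebrafish gene names supplied the symbols. It writes many genes in capitals, as in human, and those spellings are kept here.

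The targeted genes were read first. PRKDC transcript levels, in CPM (counts scaled to a fixed library total), were 34.2, 32.4 and 22.1 CPM in the il2rga mutants and 17.8, 18.7 and 19.2 CPM in the double mutants. All 3 double mutants were below all 3 il2rga mutants, with a log2 difference of -0.67 ± 0.22 (SE, n = 3 per group; edgeR adjusted p = 0.506, unadjusted p = 0.00962). The wild type animals had 50.1, 54.1 and 62.8 CPM and the prkdc mutants 23.3, 16 and 22.1 CPM. A list of 34 very long transcripts was also lower in both groups with the il2rga lesion. Its mean log2 CPM was 6.47 in wild type, 6.32 in the prkdc mutants, 5.34 in the il2rga mutants and 5.36 in the double mutants. The part of this in the PRKDC levels was not tested. The transcript of il2rga stood at 4.83, 1.71 and 6.17 CPM in the il2rga mutants and 2.05, 4.0 and 2.29 CPM in the double mutants and the groups overlapped. Both groups carry the il2rga lesion. It was 42.8, 38 and 61.4 CPM in wild type. A count over a whole gene does not show the frameshift itself.

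Total counts ran from 4756244 to 9909915 in the 6 libraries. Libraries differed in transcripts of other organs. The mean log2 CPM of 29 ovary and vitellogenin genes was 2.73, 2.37 and -0.52 in il2rga mutants 1 to 3 and 7.32, 4.57 and 0.55 in double mutants 1 to 3. That of 21 liver genes was 5.9, 7.14 and 2.45 in il2rga mutants 1 to 3 and 8.35, 6.44 and 5.42 in double mutants 1 to 3. Double mutants 1 and 2 were thus richest in ovary transcripts, and il2rga mutant 3 was poorest in both. The defining ovary marker zp3b was at 35.3, 39.8 and 0.213 CPM in the il2rga mutants and 859, 205 and 5.19 CPM in the double mutants, and the liver marker fga at 219, 608 and 0.851 CPM in the il2rga mutants and 2015, 373 and 44 CPM in the double mutants. Testis transcripts stood out in il2rga mutant 2, with 28.2 CPM of DMRT1 against at most 1.28 CPM in the other 5. The first principal component of the 6 libraries carried 46.9% of the variance and did not separate the genotypes: il2rga mutant 3 and double mutant 3 lay at 98.6 and 77.7, and the other 4 between -95.5 and -7.12. The second carried 21.9%, and on it every il2rga mutant (53.5, 28.2 and 30.4) lay above every double mutant (-49.2, 13.7 and -76.5). The part of these tissue differences in the results was not tested beyond the values given with libraries left out.

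Across 18370 tested genes, edgeR's quasi-likelihood test with Benjamini-Hochberg adjustment at 0.05 called 0 genes lower and 0 higher in the double mutants, each 0% of the genes tested. At an unadjusted p under 0.05 the same test gave 1767 genes, against 918 that the threshold alone would give, with 766 lower (4.17%) and 1001 higher (5.45%). The Wald test of DESeq2 with the same adjustment called 49 genes lower (0.267%) and 23 higher (0.125%) of 18331, and limma voom with quality weights called 0. With the replicate number as a block, edgeR called 5 genes lower (0.0272%) and 0 higher. These were cd79a, cd79b, PAX5, linc-iglc3 and plaat1l, and DESeq2 called the same 5. A block fitted on the 6 libraries alone called 0. Without il2rga mutant 2, edgeR called 5 genes lower: linc-iglc3, irf4b, ighm, plaat1l and si:ch1073-220m6.1. All 3 double mutants lay below all 3 il2rga mutants for 1075 genes (5.85%) and above them for 1029 (5.6%). Of the DESeq2 calls, all 49 lower and 22 of 23 higher genes had groups without overlap. A call on the same 6 libraries favours genes whose groups are apart, so this count is no further evidence for the calls. In all, 13 of the 72 calls belonged to the lists of B cell and immunoglobulin genes, 22 had no symbol or only a clone name, and 0 were in the ovary or the liver list.

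**Figure D1:**
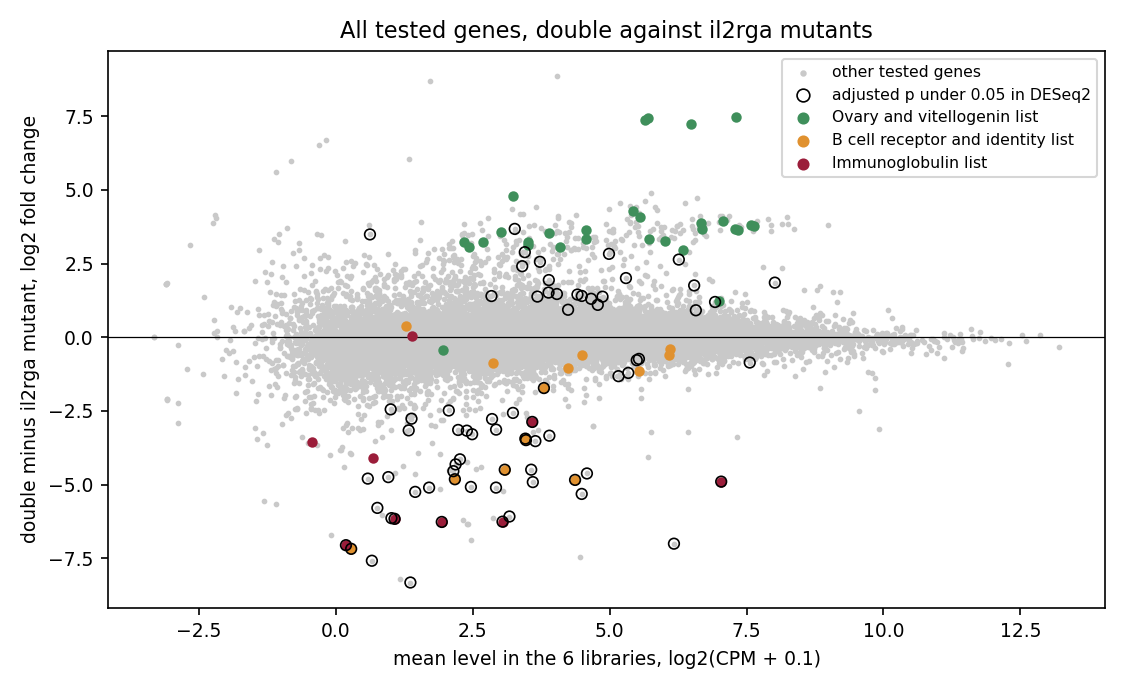
Log2 fold change of double against il2rga mutants (vertical axis) over the mean log2(CPM + 0.1) of the 6 libraries (horizontal axis), 1 point per tested gene, with 3 gene lists in colour and the 72 DESeq2 calls ringed. B cell and immunoglobulin genes lie mostly below 0 and many are ringed. Genes of the ovary list run from -0.43 to 7.47 on the log2 scale, with a median of 3.63 and no ring. The egg coat gene zpd, which DESeq2 called, is outside that list.

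Genes of the B cell receptor and of B cell identity stood lower in the double mutants than in the il2rga mutants. Of 14 tested members of that list (15 were found in the table), 9 had an unadjusted edgeR p under 0.05 and a lower level, 0 a higher one, and DESeq2 called 7 lower (the shares over all tested genes are 4.17%, 5.45% and 0.267%). In 12 of the 14 the groups did not overlap (5.85% over all genes), and the median log2 difference was -1.43, against -0.00 over all tested genes. The mean log2 CPM of the list was 3.95, 3.5 and 4.71 in il2rga mutants 1 to 3 and 1.95, 2.21 and 2.24 in double mutants 1 to 3, so each double mutant was more than 1 log2 unit below each il2rga mutant. The count of 9 stayed between 8 and 10 when any 1 of the 6 libraries was left out. Without the 2 libraries richest in ovary transcripts, which left 1 double mutant, the list median was -1.67.

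The signalling chains of the receptor were among the lowest members. The level of cd79a, which passes the receptor's signal into the cell, was 16.2, 6.94 and 25.1 CPM in the il2rga mutants and 0.682, 0.40 and 1.07 CPM in the double mutants. Its log2 difference was -4.49 ± 0.74, with an adjusted p of 0.216 in edgeR, 0.00702 with the replicate block and 1.64e-06 in DESeq2. Its partner cd79b stood at 19.1, 5.23 and 36.2 CPM in the il2rga mutants and 0.909, 0.80 and 3.82 CPM in the double mutants, a log2 difference of -3.49 ± 0.90 (adjusted p 0.483 in edgeR, 0.0165 with the block and 0.00785 in DESeq2). For both chains all 3 double mutants were below all 3 il2rga mutants.

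PAX5, the transcription factor that keeps cells in the B lineage, was at 10.7, 2.56 and 12.3 CPM in the il2rga mutants and 0.341, 0.10 and 0.458 CPM in the double mutants. The log2 difference was -4.82 ± 0.85 (adjusted p 0.236 in edgeR, 0.0165 with the block and 8.22e-05 in DESeq2). The groups were again apart, and il2rga mutant 2 was the lowest of its group for PAX5, cd79a and cd79b. EBF1 (ENSDARG00000099849), which acts upstream of PAX5 in mammals, was at 9.66, 6.62 and 11.7 CPM in the il2rga mutants and 4.43, 5.6 and 5.19 CPM in the double mutants. Neither tool called its log2 difference of -0.87 ± 0.44. The other gene listed as EBF1, ENSDARG00000069196, did not pass the filter on low counts. It had 14 counts in the il2rga mutants and 21 in the double mutants.

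Surface molecules followed in part. The tetraspanin gene cd37 was at 21.6, 10.8 and 86.8 CPM in the il2rga mutants and 0.455, 1.2 and 2.6 CPM in the double mutants, a log2 difference of -4.84 ± 0.97 (adjusted p 0.299 in edgeR and 6.68e-06 in DESeq2). CXCR5, the receptor that draws B cells into lymphoid follicles in mammals, had 38 counts in the il2rga mutants and 0 in the double mutants. At a floor of 3 counts over the group it was at least 17.1-fold lower (adjusted p 0.282 in edgeR and 0.00325 in DESeq2). The inhibitory receptor cd22 was at 18.7, 24.4 and 33 CPM in the il2rga mutants and 13.6, 13 and 9.93 CPM in the double mutants and the co-stimulatory receptor cd40 at 25.2, 21.8 and 34 CPM in the il2rga mutants and 10.9, 23.2 and 19.6 CPM in the double mutants, with log2 differences of -1.05 ± 0.47 and -0.59 ± 0.29 that no tool called. The groups were apart for cd22 and overlapped for cd40.

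Signalling genes that other blood cells also use differed by unequal amounts. The adaptor blnk was at 81.9, 36.4 and 72.8 CPM in the il2rga mutants and 24.2, 35.9 and 26.7 CPM in the double mutants and the kinase BTK at 65.6, 67.9 and 101 CPM in the il2rga mutants and 52.2, 61.2 and 65.2 CPM in the double mutants, with log2 differences of -1.13 ± 0.33 and -0.39 ± 0.27. Neither was called by edgeR or DESeq2, although the double mutants were below the il2rga mutants in both. Of 2 genes listed as SWAP70, ENSDARG00000051819 was at 30.04, 8.33 and 21.7 CPM in the il2rga mutants and 1.59, 1.9 and 1.99 CPM in the double mutants (log2 -3.44 ± 0.66, DESeq2 adjusted p 1.00e-04). The other, ENSDARG00000057286, was at 75.8, 84.7 and 83.6 CPM in the il2rga mutants and 58.4, 71.8 and 32.4 CPM in the double mutants (log2 -0.59 ± 0.28, uncalled). The kinase blk was the 1 member above 0, at 0.21, 3.1 and 2.77 CPM in the il2rga mutants and 2.5, 4.4 and 1.07 CPM in the double mutants (log2 0.37 ± 0.78), with overlapping groups.

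**Figure D2:**
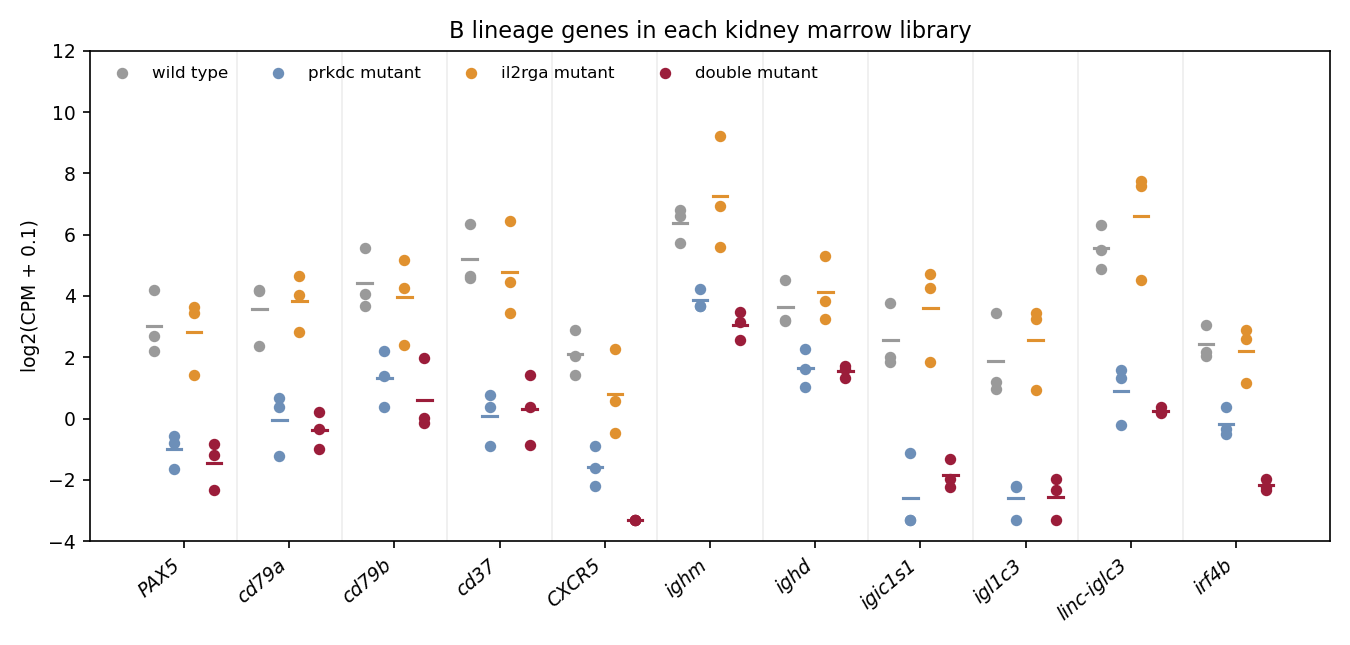
Level of 11 B lineage genes in each library as log2(CPM + 0.1) (vertical axis), with 1 point per animal, a bar at the mean of each group of 3 and the 4 genotypes in colour. In all 11 genes the 3 double mutants (dark red) lie below the 3 il2rga mutants (orange), and levels are not comparable between genes because CPM does not account for gene length. The genes were picked for display, and the B cell and immunoglobulin list members whose groups overlapped (cd40, blk, igl4c1 and ighv9-1) are not shown.

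Immunoglobulin genes were lower still. Of 47 genes found in the table, 9 passed the filter on low counts, and a gene could do so through the il2rga mutants alone, so the tested members are not a sample of the family. Of the 9, 8 had an unadjusted edgeR p under 0.05 and a lower level, DESeq2 called 6 lower, and in 7 the groups did not overlap (4.17%, 0.267% and 5.85% over all genes). The median log2 difference was -4.90, or -4.09 with a member at 0 counts set to its bound. The mean log2 CPM of the 9 was 3.24, 1.1 and 3.22 in il2rga mutants 1 to 3 and -0.34, -0.44 and -0.63 in double mutants 1 to 3, and the summed CPM was 188, 67.1 and 679 in the il2rga mutants against 15.1, 15.3 and 12.8 in the double mutants. Over the B cell and immunoglobulin lists together, 17 of 23 tested members were lower at an unadjusted p under 0.05 in edgeR, and 6 were in limma voom with quality weights. The 38 untested immunoglobulin members together held 376 counts in the il2rga mutants and 29 in the double mutants. Light chain genes are near-identical copies whose reads can be divided between them, and the strand setting of the counting is not given, so values of single light chain genes are uncertain.

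The heavy chain constant gene ighm, of the IgM class, was at 123, 48.8 and 591 CPM in the il2rga mutants and 5.8, 11 and 8.71 CPM in the double mutants. All 3 double mutants were below the il2rga mutants, among which replicate 3 was far above the other pair. The log2 difference was -4.90 ± 0.83, with an adjusted p of 0.236 in edgeR, 0.146 with the replicate block and 1.95e-09 in DESeq2. Without il2rga mutant 2, the lowest of its group, edgeR gave 0.0298. Leaving out any other library gave no call of ighm. The second heavy chain class, ighd, was at 14.3, 9.4 and 39.4 CPM in the il2rga mutants and 2.95, 2.4 and 3.21 CPM in the double mutants, a log2 difference of -2.87 ± 0.59 (adjusted p 0.299 in edgeR and 0.00133 in DESeq2). The heavy chain variable segment ighv9-1 had 17 counts in the il2rga mutants and 2 in the double mutants, and its groups overlapped.

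Light chain constant genes lay close to 0 in the double mutants. The level of igic1s1 was 18.9, 3.52 and 26 CPM in the il2rga mutants and 0.114, 0.30 and 0.153 CPM in the double mutants, a log2 difference of -6.26 ± 1.09 (adjusted p 0.236 in edgeR and 4.14e-06 in DESeq2). For igl1c3 there were 113 counts in the il2rga mutants and 2 in the double mutants, a depth-adjusted ratio of 76.1 with a 95% counting interval of 20.6 to 636 (DESeq2 adjusted p 0.00139). For igl3c3 there were 58 counts against 1, a ratio of 78.1 with an interval of 13.5 to 3137 (DESeq2 adjusted p 0.0285). These intervals cover counting error only. The variable segment igl3v5 had 32 counts against 0 and was at least 14.4-fold lower. DESeq2 called igl3v5 (adjusted p 0.0229) and not igl4v8, which had 48 counts against 4.

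One light chain gene did not share the pattern. The level of igl4c1 was 3.78, 1.17 and 2.55 CPM in the il2rga mutants and 5.91, 1.2 and 0.458 CPM in the double mutants, with a log2 difference of 0.05 ± 0.90 and overlapping groups. The highest value of all 6 was in double mutant 1, the library richest in ovary and liver transcripts. The transcript linc-iglc3, which is outside the list, was at 194, 22.9 and 213 CPM in the il2rga mutants and 1.02, 1.2 and 1.07 CPM in the double mutants. Its log2 difference of -7.00 ± 0.91 had an adjusted p of 0.11 in edgeR, 0.0165 with the block and 3.61e-18 in DESeq2.

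Of the factors that lead B cells to antibody secretion, irf4b had the smallest p of the comparison. This co-orthologue of IRF4 was at 7.35, 2.14 and 5.96 CPM in the il2rga mutants and 0.114, 0.10 and 0.153 CPM in the double mutants. With 83 counts against 3, the depth-adjusted ratio was 37.3 with a 95% counting interval of 12.3 to 184. The adjusted p was 0.11 in edgeR, 0.0761 with the replicate block and 1.56e-04 in DESeq2. Without il2rga mutant 2, again the lowest of its group, edgeR gave 0.0166, and leaving out any other library gave no call of irf4b. The gene listed as IRF4 itself was at 12, 4.91 and 8.08 CPM in the il2rga mutants and 2.39, 3.7 and 5.65 CPM in the double mutants (log2 -1.08 ± 0.45, uncalled). PRDM1, which drives plasma cell formation in mammals, had a log2 difference of -0.67 ± 0.43. XBP1, which many secretory cells use, had one of 0.08 ± 0.26, and the groups overlapped for both.

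Of the recombinase genes, RAG1 did not share the B cell differences, while the RAG2 difference was near the B cell list median of -1.43. RAG1, whose product cuts antigen receptor genes, was at 14.9, 14 and 28.9 CPM in the il2rga mutants and 14.4, 11.3 and 43.2 CPM in the double mutants, a log2 difference of 0.25 ± 0.59 with overlapping groups. RAG2, its partner, was at 6.51, 6.3 and 23.8 CPM in the il2rga mutants and 4.09, 2.4 and 6.87 CPM in the double mutants, a log2 difference of -1.46 ± 0.60 with an unadjusted p of 0.0341 and overlap at the edges. Of 11 tested recombinase and early lymphoid genes, 3 were lower at an unadjusted p under 0.05 and 0 higher (the background shares are 4.17% and 5.45%), with a median of -0.18 and no call by either tool. The other 2 were TCF12 (-0.63 ± 0.25) and ERG (-0.45 ± 0.20), for which the groups were apart.

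Genes outside these lists completed the lower end. The acyltransferase family gene plaat1l was at 54.4, 14.4 and 62.1 CPM in the il2rga mutants and 0.341, 0.90 and 2.14 CPM in the double mutants, a log2 difference of -5.31 ± 0.79 (adjusted p 0.156 in edgeR, 0.0165 with the block and 5.24e-10 in DESeq2). The fish toll-like receptor gene tlr19.1 had 51 counts against 1, a ratio of 68.7 with an interval of 11.8 to 2765. The finTRIM family gene ftr80 had 71 counts against 3, a ratio of 31.9 with an interval of 10.5 to 158. The chemokine gene ccl35.1 was at 3.15, 3.63 and 6.38 CPM in the il2rga mutants and 0.682, 0.60 and 0.611 CPM in the double mutants, a log2 difference of -2.76 ± 0.51. DESeq2 called these 3 as well, with adjusted p of 0.00473, 0.00293 and 0.00473, and edgeR did not (0.233, 0.158 and 0.267). The groups were apart for all 4 genes, as the rule that chose them required.

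The following lower genes were chosen after their values were seen, all from the DESeq2 calls. The DNA-sensing receptor gene tlr9 was at 26.3, 5.77 and 16 CPM in the il2rga mutants and 2.16, 3.8 and 1.99 CPM in the double mutants (log2 -2.56 ± 0.62, DESeq2 adjusted p 0.0146). The gene pou2f2b, a co-orthologue of the B cell factor Oct-2, was at 9.24, 4.38 and 11.3 CPM in the il2rga mutants and 1.25, 0.60 and 0.916 CPM in the double mutants (log2 -3.14 ± 0.62, DESeq2 adjusted p 0.00188). Both were lower in every double mutant than in any il2rga mutant. Of 2 chemokine receptor genes listed as CXCR4, ENSDARG00000057633 was at 37.8, 7.8 and 23 CPM in the il2rga mutants and 1.7, 2.2 and 1.99 CPM in the double mutants (log2 -3.52 ± 0.65, DESeq2 adjusted p 6.80e-05). The other, ENSDARG00000041959, was at 379, 304 and 561 CPM in the il2rga mutants and 308, 310.3 and 293 CPM in the double mutants (log2 -0.45 ± 0.28, uncalled). Smaller differences, with little spread inside the groups, were those of vwf, the clotting factor of endothelium and thrombocytes, and of the adhesion receptor gene ADGRG6. The first was at 61.3, 47.3 and 44.5 CPM in the il2rga mutants and 18.8, 26 and 16.5 CPM in the double mutants (log2 -1.32 ± 0.29, DESeq2 adjusted p 0.0161) and the second at 61.1, 57.8 and 54.5 CPM in the il2rga mutants and 32.8, 31.5 and 40.02 CPM in the double mutants (log2 -0.73 ± 0.16, DESeq2 adjusted p 0.0151).

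The higher genes named here were chosen by their p and not by a list. By the rule of smallest p with no overlap between groups, the 10 genes were DHX30, LSM1, FUOM, rbm25a, CCNJL, zpd, ZMYND19, RPP25L, THOP1 and TMEM69. Their edgeR adjusted p ran from 0.267 to 0.469. DESeq2 called 9 of them and gave TMEM69 an adjusted p of 0.0532. The RNA helicase gene DHX30 was at 11.8, 15.6 and 16.2 CPM in the il2rga mutants and 39.6, 28.8 and 39.6 CPM in the double mutants, a log2 difference of 1.31 ± 0.24 (DESeq2 adjusted p 7.98e-04). LSM1, of the ring that promotes messenger RNA decapping, was at 7.77, 8.76 and 6.17 CPM in the il2rga mutants and 21.5, 16.6 and 27.3 CPM in the double mutants, a log2 difference of 1.52 ± 0.29 (DESeq2 adjusted p 0.00204). FUOM, a fucose mutarotase gene, was at 10.1, 15.7 and 8.08 CPM in the il2rga mutants and 28.8, 30.00 and 34.7 CPM in the double mutants, a log2 difference of 1.45 ± 0.28 (DESeq2 adjusted p 0.00192). In these 3 genes double mutant 3, the member of its group with least ovary RNA, was as high as the other double mutants. Without the 2 libraries richest in ovary transcripts, their log2 differences were 1.44, 1.84 and 1.60. Since the rule put every double mutant above every il2rga mutant, such differences were bound to be above 0 for all 10 genes. In prkdc mutants against wild type, the log2 differences of the 10 ran from -0.65 (zpd) to 0.41 (DHX30). Means in wild type, il2rga and double mutants were 24, 14.5 and 36 CPM for DHX30 and 27.2, 12.9 and 24.7 CPM for rbm25a. For all 10 genes the il2rga mutant mean was below that of wild type, and the rule favours genes low in the il2rga mutants.

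Of the other 7 higher genes, zpd, CCNJL, THOP1 and RPP25L were highest in double mutant 1, rbm25a in double mutant 2, and ZMYND19 and TMEM69 in double mutant 3. The gene zpd, named for the zona pellucida of the egg coat, was at 3.36, 3.42 and 4.68 CPM in the il2rga mutants and 46.8, 12.1 and 8.55 CPM in the double mutants, a log2 difference of 2.56 ± 0.60 that was 1.17 without the 2 ovary-rich libraries. The cyclin J-like gene CCNJL was at 8.61, 8.86 and 8.51 CPM in the il2rga mutants and 38, 16.8 and 17.3 CPM in the double mutants and the oligopeptidase gene THOP1 at 64.9, 78 and 78.3 CPM in the il2rga mutants and 253, 129 and 126 CPM in the double mutants, and their log2 differences of 1.47 ± 0.33 and 1.2 ± 0.28 became 0.99 and 0.77. The splicing factor gene rbm25a, at 11.8, 14.6 and 12.3 CPM in the il2rga mutants and 20.9, 29.5 and 23.8 CPM in the double mutants, had a log2 difference of 0.93 ± 0.20, and 0.88 without those libraries. The remaining 3, ZMYND19, RPP25L and TMEM69, had log2 differences of 1.4 ± 0.33, 1.38 ± 0.33 and 0.93 ± 0.22.

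By mean log2 CPM, T cell genes were low in both groups, which left the comparison little transcript for many of them. Members such as GATA3 (46.4, 29.2 and 18.1 CPM in the il2rga mutants) and a CCR9 gene were more abundant. The summed CPM of the list was 121, 54.5 and 92.8 in the il2rga mutants and 44, 47.5 and 41.1 in the double mutants. The mean log2 CPM of 20 T cell genes was 0.33, 0.17 and -0.08 in il2rga mutants 1 to 3 and 0.24, 0.01 and 0.07 in double mutants 1 to 3, against 2.57, 2.39 and 3.26 in wild type. The co-receptor gene cd8a had 0 counts in all 6 libraries, and the receptor constant gene trbc1 had 4 counts in the il2rga and 3 in the double mutants. Of the 20, 1 was lower and 1 higher at an unadjusted p under 0.05, near the shares over all genes (4.17% and 5.45%). The median was -0.12, with no call by either tool. The lower one was a gene listed as CCR9, ENSDARG00000055186, at 47.9, 9.83 and 55.7 CPM in the il2rga mutants and 6.02, 5.1 and 13.4 CPM in the double mutants (log2 -2.21 ± 0.61, DESeq2 adjusted p 0.0513), a chemokine receptor of lymphocytes. The higher one was the T cell factor gene bcl11ba, with 1 count in the il2rga mutants and 16 in the double mutants, a ratio of 11.9 with an interval of 1.85 to 498.

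Cytotoxic and NK cell genes were also low in both groups. Of 18 tested genes, 4 were higher at an unadjusted p under 0.05 and 0 lower (5.45% and 4.17% over all genes), with a median of 0.35 and no call by either tool. The NK-lysin gene nkl.4, of a family of pore-forming granule proteins, was at 0, 0 and 0.638 CPM in the il2rga mutants and 0.568, 1.0 and 3.97 CPM in the double mutants. With 3 counts against 41, the ratio was 10.15 with an interval of 3.24 to 51.2. Its relative nkl.3 was at 0.63, 0.107 and 0.638 CPM in the il2rga mutants and 0.227, 2.5 and 2.6 CPM in the double mutants, the chemokine gene ccl33.3 at 0.21, 0.214 and 0.851 CPM in the il2rga mutants and 0.796, 1.9 and 4.28 CPM in the double mutants and the T-box factor gene EOMES at 6.51, 3.42 and 5.11 CPM in the il2rga mutants and 23.5, 8.8 and 8.4 CPM in the double mutants. Double mutant 3 was the highest library for nkl.4, nkl.3 and ccl33.3, and double mutant 1 for EOMES. Without double mutant 3 the count was 1, and without il2rga mutant 2 it was 0. The count of all genes passing as higher, 1001, was then 1117 and 871.

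A minority of myeloid and other blood genes passed the unadjusted threshold, all as lower. Of 18 macrophage genes, 3 were lower at an unadjusted p under 0.05 (4.17% over all genes) and 0 higher. In this list 14 genes were below 0, with a median of -0.27. The MPEG1 genes of the list had means of 176 and 131 CPM in the il2rga mutants and 160 and 110 CPM in the double mutants. The 3 lower genes follow. The scavenger receptor gene marco was at 940.2, 669 and 566 CPM in the il2rga mutants and 212, 484 and 397 CPM in the double mutants (log2 -0.99 ± 0.31), the growth factor receptor gene csf1ra at 103, 66.4 and 68.9 CPM in the il2rga mutants and 41.6, 60.7 and 24.6 CPM in the double mutants (log2 -0.91 ± 0.34) and the complement gene c1qc at 127, 159 and 197 CPM in the il2rga mutants and 104, 133 and 92 CPM in the double mutants (log2 -0.55 ± 0.22). Groups were apart for the first pair and overlapped for c1qc. Of 12 neutrophil genes, 1 was lower, the oxidase subunit gene NCF1 (-1.15 ± 0.42), and 11 were below 0 (median -0.52). Of 11 genes of class II antigen presentation, a pathway of B cells, dendritic cells and macrophages, cd74a (-1.31 ± 0.41) and its regulator ciita (-1.07 ± 0.45) were lower, and the median was -0.53. In 13 thrombocyte genes and 19 erythroid genes 0 passed, with medians of -0.23 and 0.11. Of 17 stem and progenitor genes 2 were lower, the CXCR4 gene given above and SPI1 (-0.53 ± 0.23). Apart from that CXCR4 gene, neither edgeR nor DESeq2 called any gene of these lists after adjustment.

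Some cytokine signalling genes passed as lower. Of 21 gamma chain partners and JAK-STAT genes, 4 were lower at an unadjusted p under 0.05 and 0 higher (4.17% and 5.45% over all genes), with a median of -0.26. These were the kinase gene TYK2, at 53.4, 30.1 and 40.8 CPM in the il2rga mutants and 18.8, 27.6 and 22.8 CPM in the double mutants (log2 -0.84 ± 0.26), STAT4 (-0.85 ± 0.34), the receptor gene il21r.1 (-1.53 ± 0.61) and the feedback inhibitor gene SOCS3 (-1.05 ± 0.43). JAK1, which binds partner chains of the gamma chain, had a log2 difference of -0.26 ± 0.24 with overlap. Of 15 inflammatory genes 4 were lower and 14 were below 0 (median -0.60). They were PTGS2 (ENSDARG00000004539, -1.98 ± 0.76), caspa (-0.52 ± 0.23), nfkbiaa (-0.90 ± 0.38) and SOCS3, which is in both lists. Of 26 interferon-stimulated genes 2 were lower, ifitm1 (-1.07 ± 0.44) and IFIH1 (-0.64 ± 0.29), with a median of -0.64, where 4.17% of all genes were lower. Neither tool called any gene of these 3 lists after adjustment.

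Among other genes of the pathway in which DNA-PKcs acts, few passed the unadjusted threshold. Of 24 tested DNA end joining genes, 1 was higher and 0 lower at an unadjusted p under 0.05 (5.45% and 4.17% over all genes), 5 were below 0, the median was 0.18, and no tool called any. The higher one was RIF1, which directs repair toward end joining, at 59.9, 60.1 and 60.8 CPM in the il2rga mutants and 149, 82.1 and 129 CPM in the double mutants (log2 0.99 ± 0.33). All 3 double mutants were above the narrow range of the il2rga mutants. Of 19 targets of p53, the factor that DNA breaks activate, 1 was higher, the stress gene sesn2 (1.16 ± 0.33), and 1 lower, TP53INP1 (-0.92 ± 0.36), with a median of 0.02.

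**Figure D3:**
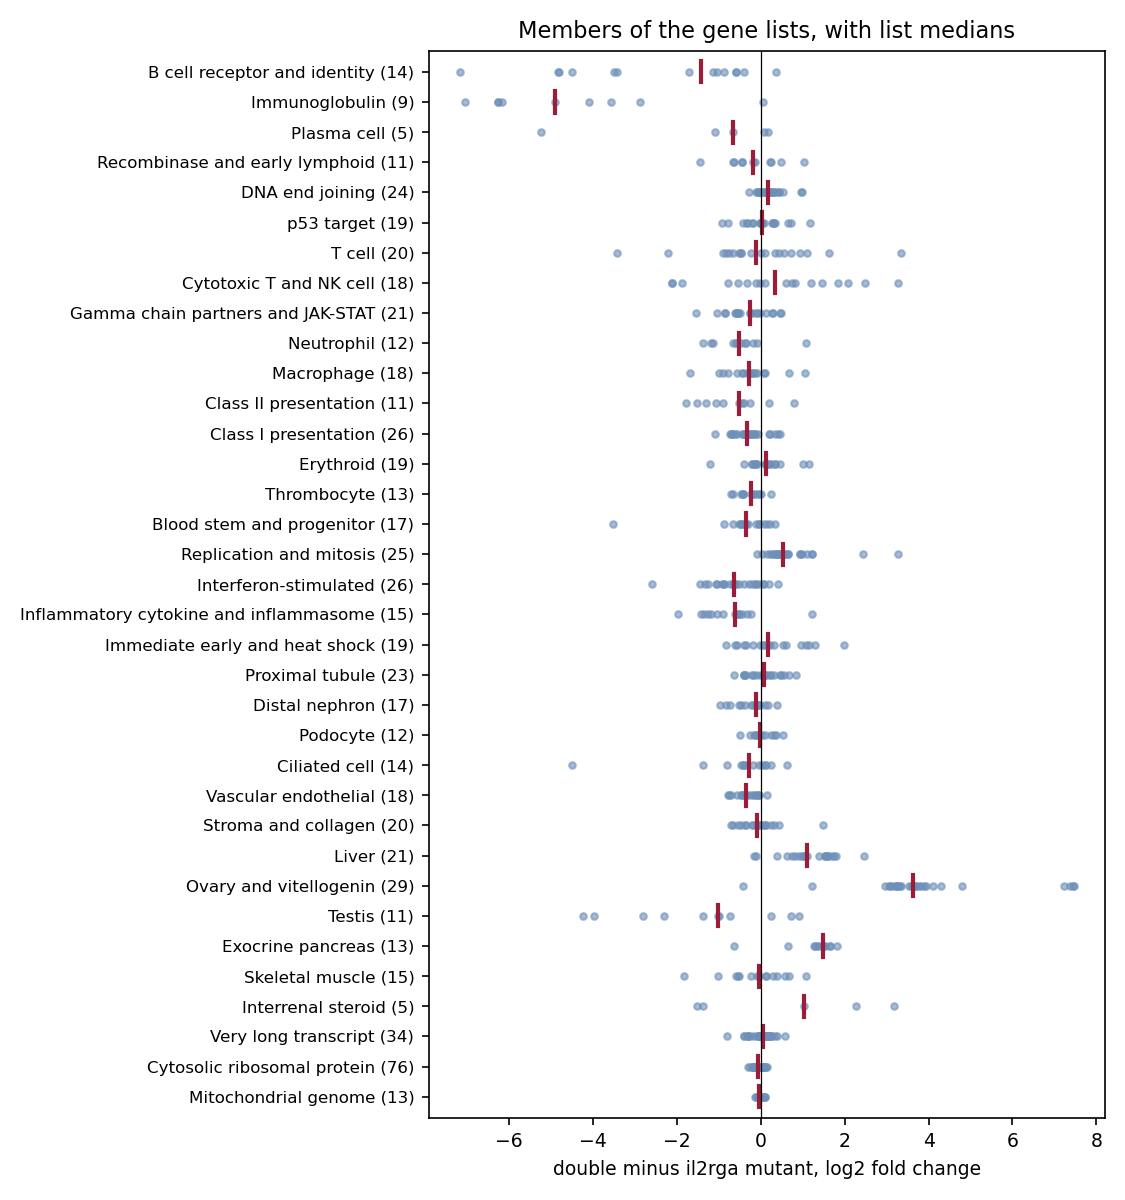
Log2 fold change of double against il2rga mutants for each tested member of 35 gene lists (points), with the list median as a red bar and the number of tested members in brackets. B cell and immunoglobulin medians lie at -1.43 and -4.90, ovary and liver medians at 3.63 and 1.09, and most others within 1 log2 unit of 0.

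A minority of cell division genes passed as higher in the double mutants, and that count depended on the libraries and the fit used. Of 25 replication and mitosis genes 4 were higher at an unadjusted p under 0.05 (CCNB2, MCM6, CDC20 and CCNB1; 5.45% over all genes), 24 were above 0 and the median was 0.53, with no call by edgeR or DESeq2. The mean log2 CPM was 6.04, 6.28 and 6.2 in il2rga mutants 1 to 3 and 7.32, 6.16 and 6.79 in double mutants 1 to 3, and the groups overlapped through double mutant 2. Without double mutant 1 the count of 4 became 0, without il2rga mutant 1 or il2rga mutant 3 it became 1, and without double mutant 2 it became 9. The count of all genes passing as higher, 1001, also moved, to 560, 573, 883 and 1469 in that order. At an unadjusted p under 0.05 the list count was 7 in DESeq2 (1168 over all genes). In edgeR with the replicate block on the 2 groups alone it was also 7 (817 over all genes). CCNB2, a mitotic cyclin, was at 22.1, 24.6 and 9.79 CPM in the il2rga mutants and 239, 52.4 and 15.1 CPM in the double mutants, and MCM6 (ENSDARG00000033231), of the replication helicase, at 7.56, 6.73 and 0.638 CPM in the il2rga mutants and 117, 28.7 and 0.916 CPM in the double mutants. Both were highest in double mutant 1 and in double mutant 3 lay within the range of the il2rga mutants, and CCNB1 is also in the ovary list.

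Of 18 endothelial genes 5 were lower at an unadjusted p under 0.05 (4.17% over all genes), 0 were higher and 17 were below 0, with a median of -0.36 and no call by edgeR or DESeq2. The angiopoietin receptor gene tek was at 68.9, 54.1 and 38.9 CPM in the il2rga mutants and 27.6, 34 and 33.9 CPM in the double mutants (log2 -0.76 ± 0.21), and EGFL7 (-0.56 ± 0.20), SOX7 (-0.71 ± 0.31), sox18 (-0.79 ± 0.31) and ERG were the others. Groups were apart for all 5. The count was 1 without double mutant 1, 2 without il2rga mutant 1, 3 with the replicate block and 1 with the block on the 2 groups alone. The count of all genes passing as lower, 766, was 534, 625, 645 and 451 under these settings.

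Lists of kidney and other tissues were read in the same way. Of 23 proximal tubule, 17 distal nephron and 12 podocyte genes, 1, 1 and 0 were lower at an unadjusted p under 0.05 (4.17% over all genes), with medians of 0.08, -0.11 and -0.02. Of 29 ovary genes 17 were higher (5.45% over all genes), with a median of 3.63. But the count was 0 without double mutant 1, where 560 of all 18370 genes were higher. The ovary median was -2.47 without double mutants 1 and 2. Liver genes had a median of 1.09, 0 of 21 at that threshold, and a median of -0.33 without double mutant 1. With the 4 libraries richest in liver transcripts left out, or the 2 richest in ovary transcripts, the B cell medians were -2.01 and -1.67 and the immunoglobulin medians -6.08 and -5.44. Those of all tested genes were 0.03 and -0.11, and those of the liver list 3.97 and -0.89. Leaving out the liver-rich libraries thus did not balance liver transcripts between the groups. Leaving out the liver-rich libraries left 1 animal per group, and leaving out the ovary-rich ones left 1 double mutant, so the lone animals are assumed to vary like the other groups. The most abundant genes of 5 lists were called by neither edgeR nor DESeq2. These were GATA3 of the T cell list (log2 -0.83 ± 0.50), nfkbiab of the inflammatory list (-0.52 ± 0.36), HSPA5 of the heat shock list (0.61 ± 0.29), tfa of the liver list (1.53 ± 1.21) and CPA1 of the pancreas list (-0.64 ± 0.34). Groups were apart for HSPA5 and overlapped for the other 4. One immune gene depended on a single double mutant. The class I gene mhc1uba was at 295, 366 and 649 CPM in the il2rga mutants and 335, 763 and 2.9 CPM in the double mutants, so that double mutant 3 was far below the others. Its log2 difference was -0.25 ± 1.09, and edgeR called it at -7.80 without the 4 liver-rich libraries (adjusted p = 0.0249) and at -7.23 without the 2 ovary-rich ones (adjusted p = 0.0224), where double mutant 3 was the only animal of its group.

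**Figure D4:**
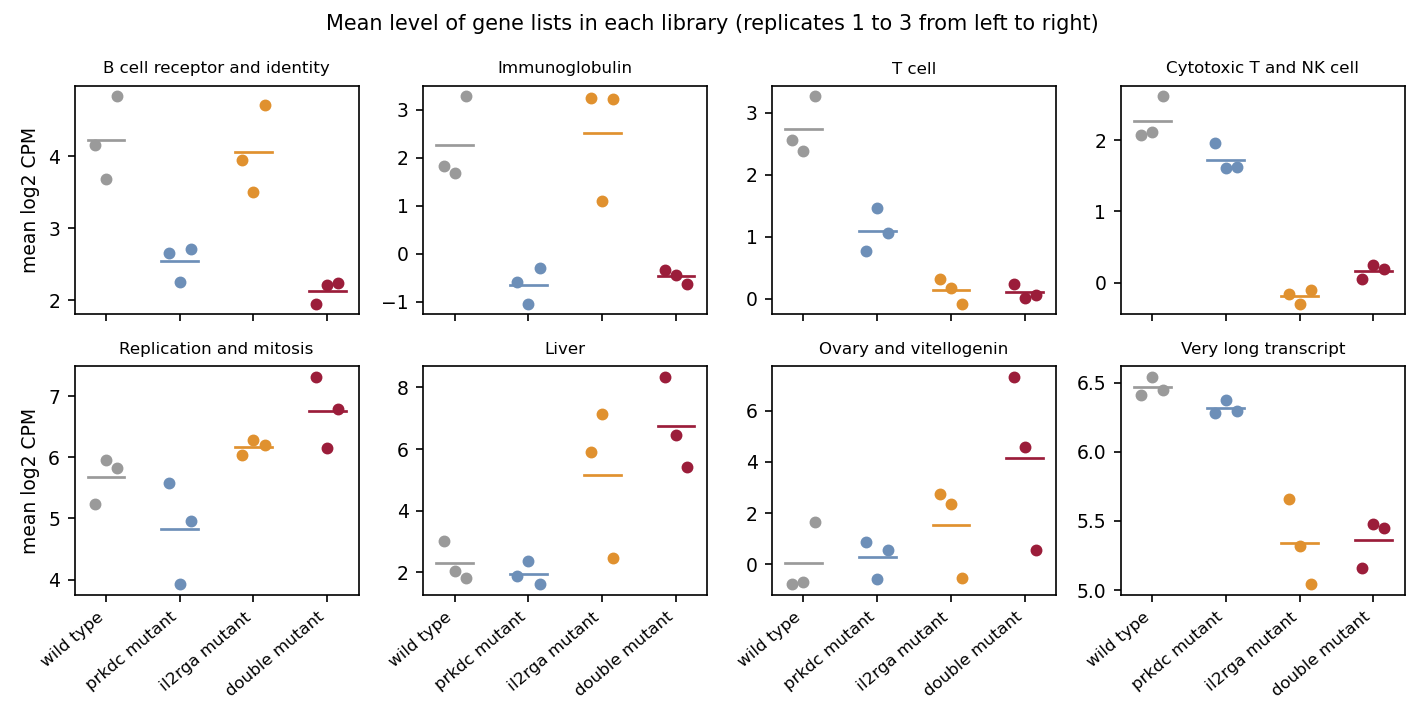
Mean log2 CPM of 8 gene lists in each library (points, replicates 1 to 3 from left to right) with the group mean as a bar, for the 4 genotypes, each panel on its own scale. The B cell and immunoglobulin means of all 3 double mutants lie below those of all 3 il2rga mutants, while ovary and liver means spread widely inside both groups.

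The prkdc difference was then set beside the same difference on a background with intact il2rga, prkdc mutants against wild type, which shares no library with it. The 2 backgrounds differed in transcripts of other organs. The mean log2 CPM of the liver list was 2.29 in wild type and 1.96 in the prkdc mutants. It was 5.16 in the il2rga mutants and 6.74 in the double mutants. The part of this in the interaction was not tested beyond the settings given at the end. A test of the difference between the differences, the interaction in edgeR, called 0 of 18370 genes (0%), with 1123 at an unadjusted p under 0.05 against 918 from the threshold alone, 548 higher (2.98%) and 575 lower (3.13%). DESeq2 called 49 (0.267%), 29 higher and 20 lower, of which 3 were in the T cell list and 0 in the B cell and immunoglobulin lists. In the prkdc mutants against wild type, 9 of 14 B cell genes and 9 of 9 immunoglobulin genes were lower at an unadjusted p under 0.05, against 2.9% of all genes (2.83% were higher), with medians of -1.72 and -4.15.

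For the receptor chain gene cd79a the log2 difference was -3.76 ± 0.70 without and -4.49 ± 0.74 with the il2rga lesion, an interaction of -0.73 ± 0.96 (unadjusted p 0.464). For PAX5 it was -4.49 ± 0.80 and -4.82 ± 0.85, an interaction of -0.33 ± 1.09 (p 0.767). For cd37 it was -5.32 ± 0.99 and -4.84 ± 0.97, an interaction of 0.48 ± 1.27 (p 0.713). None of these 3 interactions was larger than its SE, and their width does not show the differences to be equal.

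Some genes of the B lineage differed more. At an unadjusted p under 0.05 in edgeR, the interaction was lower for 2 of 14 B cell genes and higher for 0. Of 9 immunoglobulin genes 1 was lower and 1 higher, where 3.13% of all genes were lower and 2.98% higher. For ighm the log2 difference was -2.58 ± 0.75 without and -4.90 ± 0.83 with the il2rga lesion, an interaction of -2.31 ± 1.02 with an unadjusted p of 0.0463. For irf4b it was -2.72 ± 0.54 and -5.24 ± 0.68, an interaction of -2.52 ± 0.86 (p 0.0129). For cd22 the sign turned, from 1.38 ± 0.48 to -1.05 ± 0.47, an interaction of -2.43 ± 0.67 (p 0.00392). For igl4c1 the difference was -4.15 ± 1.17 without and 0.05 ± 0.90 with the lesion, an interaction of 4.2 ± 1.48 (p 0.0159). For blnk it was 0.25 ± 0.33 and -1.13 ± 0.33, an interaction of -1.38 ± 0.47 (p 0.0129). The edgeR adjusted p was 0.788 for each of these genes.

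More T cell genes passed as lower without the il2rga lesion than with it. Without the lesion 12 of 20 were lower at an unadjusted p under 0.05 (2.9% over all genes) and the median log2 difference was -1.93. With it 1 was lower and 1 higher (4.17% and 5.45% over all genes). The median was then -0.12, and single genes ran from -3.44 to 3.35. In the interaction 9 of the 20 were higher and 1 lower at that threshold (2.98% and 3.13% over all genes). The interaction median was 1.96, and 0 were called after adjustment in edgeR. DESeq2 called TCF7, CCR7 and bcl11ba. The T cell factor gene TCF7 was at 9.64, 6.46 and 11.9 CPM in wild type and 0.572, 0.764 and 0.72 CPM in the prkdc mutants, and at 1.26, 0.214 and 0.425 CPM in the il2rga mutants and 1.02, 0.80 and 0.764 CPM in the double mutants, an interaction of 4.28 ± 0.78 (adjusted p 0.788 in edgeR and 0.00679 in DESeq2). The mean log2 CPM of T cell genes was low in il2rga mutants before prkdc loss was added, as given above. In the cytotoxic list 3 of 18 were higher in the interaction (2.98% over all genes), with medians of -0.32 and 0.35 for the pair of differences. The genes of smallest interaction p by the rule were ocstamp, spink2.2, gzma and bcl11ba above 0 and nlrp12l, HOXD9, PGGHG and cmya5 below it. That rule took only genes whose double and il2rga mutants did not overlap. Counts in the il2rga and double mutants were 4 and 13 for gzma, and 2 and 17 for ocstamp. Both interactions thus rest on few reads in those groups. The granzyme gene gzma, whose product kills target cells, was at 2.85, 4.14 and 7.64 CPM in wild type and 0.801, 0.655 and 0.72 CPM in the prkdc mutants, and at 0.21, 0.214 and 0.213 CPM in the il2rga mutants and 0.568, 0.50 and 0.458 CPM in the double mutants, an interaction of 3.93 ± 0.74 (edgeR adjusted p 0.788). The gene spink2.2, of the protease inhibitor family Kazal, was at 360.00, 164 and 89.2 CPM in wild type and 29.1, 14.3 and 29 CPM in the prkdc mutants, and at 44.8, 19.9 and 11.5 CPM in the il2rga mutants and 116, 69.7 and 71.9 CPM in the double mutants, an interaction of 4.84 ± 0.84 (adjusted p 0.788 in edgeR and 1.01e-05 in DESeq2). For spink2.2 every prkdc mutant was thus below every wild type animal, and every double mutant above every il2rga mutant, where the rule had required no overlap. The remaining interactions were 6.29 ± 1.04 for ocstamp, a gene of osteoclast fusion in mammals, 5.7 ± 1.19 for bcl11ba, -1.91 ± 0.38 for nlrp12l, -2.61 ± 0.54 for HOXD9, -1.53 ± 0.34 for PGGHG and -2.53 ± 0.56 for cmya5. DESeq2 called ocstamp, bcl11ba, nlrp12l, PGGHG and cmya5 as well, with adjusted p of 0.0239, 0.0421, 0.0092, 0.0304 and 0.0354, and not gzma or HOXD9.

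**Figure D5:**
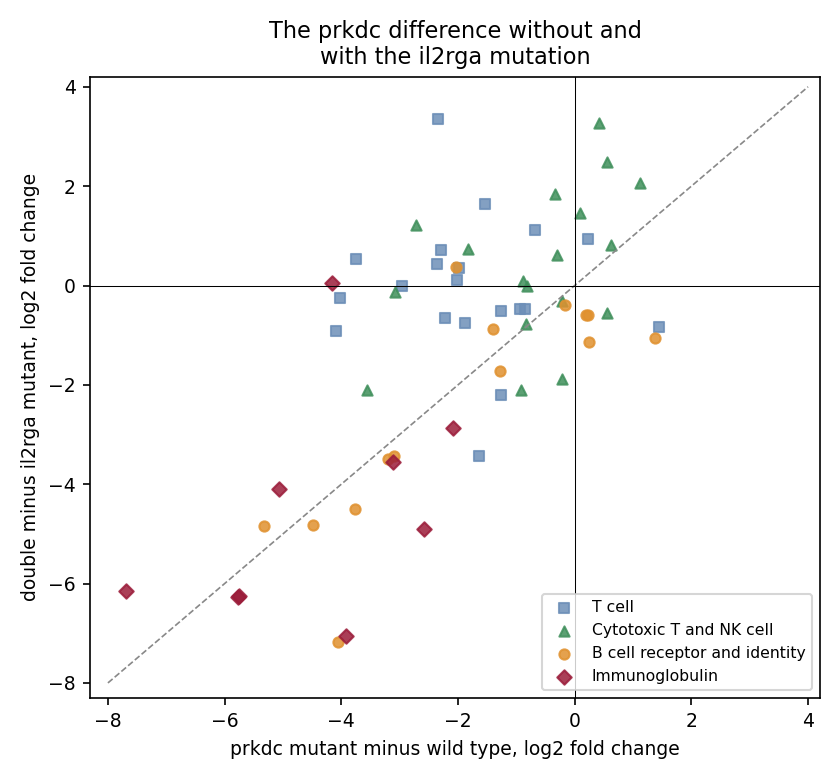
Log2 fold change of double against il2rga mutants (vertical axis) over that of prkdc mutants against wild type (horizontal axis) for tested members of 4 gene lists, with a dashed line where both are equal. Most B cell and immunoglobulin genes lie in the lower left near the line, and most T cell genes lie left of 0 and above the line.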

How the data were processed

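The authors' deposited counts are whole reads per gene identifier, made from 100 ng of poly(A) RNA per animal with a directional kit, 15 PCR cycles and paired reads of 50 bp, per the labels' protocols. STAR, Picard and featureCounts on GRCz10 are named in the submitters' processing notes. Their versions, the annotation, the strand setting and any removal of duplicate reads are in none of the sources used here. No coordinates are printed, since no table of that build was used.

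Columns were matched to samples by genotype and replicate number. Of 32105 identifiers, 26269 had a symbol, and 4144 share one with another identifier. Total counts ran from 4756244 to 10311377 over the 12 libraries. Replicates differed well beyond counting noise (chi-square over degrees of freedom 19.1 to 79.7), so each was counted as its own sample.

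filterByExpr chose the genes and TMM the scaling. A fit in edgeR 4.0.16 (R 4.3.3) took 12 libraries with 4 group means (robust glmQLFit, two-sided glmQLFTest), with Benjamini-Hochberg adjustment over all 18370 genes at 0.05. The biological coefficient of variation shared by all genes was 0.418. Each SE was obtained from the log2 fold change and its F statistic. List means use log2 CPM with a prior count of 2. Ratios of small counts carry exact 95% intervals, and a count of 0 is set to 3 counts over the group. The script was tested on simulated counts.

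The labels do not say that replicate numbers pair animals. Same-numbered il2rga and double mutants correlated at 0.132, 0.121 and 0.518 after group means were removed, all above the 0.1 set as the rule for pairing, so values with the replicate number as a block are given where they change a call. Of the differently numbered pairs of these groups, il2rga mutant 2 with double mutant 1 reached 0.418 and il2rga mutant 1 with double mutant 2 reached 0.212. The rest were below 0. Over all groups 6 of 18 same-numbered pairs were above 0.1. These values do not show that the numbers pair animals, so the block is an alternative only.

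The comparison and the 35 gene lists were chosen with earlier results of these data known, and no list was tested as a set. Of 616 list entries 72 matched no gene. An entry with no match was also tried as the capital symbol without its paralogue letter, a rule added after the table was seen. Genes named are the targeted genes, the 10 of smallest p per direction with at least 1 CPM and groups apart, the most abundant B cell and immunoglobulin genes, the most abundant gene of each other list and 4 per direction for the interaction, whose double and il2rga mutants also had to be apart. Some genes that this rule selects are not reported here. Other genes were named because they passed an unadjusted p under 0.05 or a DESeq2 call, after their values were seen. Alternatives were DESeq2 size factors, 2 other filters, DESeq2 1.42.0 (39 adjusted p were NA), limma 3.58.1 voom with quality weights, the 2 groups alone, the block, a liver covariate and leaving out each library. Leaving out the libraries rich in liver or ovary transcripts was added after the data were seen.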

Additional observations from a re-analysis of the deposited data

How the results depend on the processing

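The count of genes called lower, 0 in edgeR, was 49 in DESeq2, 5 with the replicate block, and 0 to 5 when 1 library was left out, where il2rga mutant 2 was the library concerned. It was 1 without the 4 liver-rich libraries and 2 without the 2 ovary-rich ones. The count called higher was 23 in DESeq2 and 0 to 0 with 1 library left out. B cell and immunoglobulin genes called lower numbered 13 in DESeq2, 3 with the block, and 0 to 1 with 1 library left out. Those at an unadjusted p under 0.05, 17 in edgeR, numbered 6 in limma voom and 15 to 18 with 1 library left out. Genes called in the interaction numbered 49 in DESeq2, 1 without the liver-rich libraries, 2 without the ovary-rich ones, and 0 to 1 with 1 library left out, the 1 arising without prkdc mutant 1. With these libraries out a group can hold 1 animal, which is assumed to vary like the others. The replicate block changed no call beside those given. The median log2 difference of all genes stayed within 0.1 of 0 under each setting except -0.11 without the ovary-rich libraries. The cause of these shifts was not tested.

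Of 1709 values of named genes under these settings, 1605 kept their sign and side of the threshold, 40 passed the threshold where edgeR did not, and 64 changed sign, all for genes that no setting called. The log2 difference of igl4c1 was -0.12 with the block, -0.37 with the block on the 2 groups alone, -0.41 with the liver covariate, -2.44 without the liver-rich and -2.38 without the ovary-rich libraries. In limma voom il2rga was at 0.070, SLC4A1 at -0.41, FOXJ1 at -0.021 and actc1b at -0.91. With the block SLC4A1 was at -0.070 and actc1b at -0.19, and on the 2 groups alone at -0.29 and -0.28. With the liver covariate CDH17 was at -0.00986 and RPS2 at 0.13. The gene pdzk1ip1 was at 0.0047 with DESeq2 size factors and in DESeq2, and at 0.013 with no filter. Without the liver-rich libraries XBP1 was at -0.33, CCNG1 at -0.50, f13a1b at 0.18, plvapb at 0.14, DYNC1H1 at 0.015 and MT-CO1 at -0.24. Without the ovary-rich ones CCNG1 was at -0.022, CDH17 at -0.13, CXCL12 at -0.10, zp3e at -2.81, CYP11A1 at -0.81 and RPS2 at 0.33. With 1 library left out, the log2 difference ran from -1.51 to 0.54 for igl4c1, -0.055 to 0.39 for XBP1, -0.68 to 0.34 for FOXO1, -0.13 to 0.39 for CCNG1, -0.57 to 0.036 for npsn, -0.54 to 0.019 for b2ml, -0.71 to 0.62 for SLC4A1, -0.14 to 0.078 for f13a1b, -0.033 to 0.82 for PCNA and -0.92 to 0.069 for stat2. It ran from -0.49 to 0.31 for pdzk1ip1, -0.080 to 0.20 for CDH17, -0.041 to 0.21 for FOXJ1, -0.054 to 0.30 for CXCL12, -2.95 to 3.29 for PIWIL1, -0.31 to 0.67 for actc1b, -0.37 to 0.16 for DYNC1H1, -0.44 to 0.13 for RPS2 and -0.031 to 0.27 for MT-CO1.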
